A study of Mus musculus with 12 samples.

Results

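Aged total epidermis was set against young total epidermis, with 1 array a side, so that 2 of the 12 arrays of the series make up the comparison. Both samples were total epidermal cells of wild-type C57BL/6 mice, taken at 8 weeks (young) or at 22 months or more (aged), and their own labels name neither hair plucking nor tamoxifen. A level is the log2 processed intensity of a probe minus the 75th percentile of its array, and a difference is the aged minus the young level. A gene was kept when its probe was well above background on either array, which held for 24332 of 34763 gene names. A gene is called higher or lower when its levels lay 2-fold or more apart (1 on the log2 scale) and the brighter array was well above background. With 1 array a side there is no replicate check, and no p-value belongs to a single difference.

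The series concerns hair follicle aging and type XVII collagen. Its other 10 arrays hold interfollicular epidermal cells (IFE, sorted as high for ITGA6 and SCA1) of young and aged mice, and hair follicle stem cells (HFSC, sorted by CD34 and ITGA6 and without SCA1) of young, aged, control and Col17a1 conditional knockout mice, with and without plucking. Per the labels' protocols, skin cells were dissociated and sorted by flow cytometry, no surface gate being named for total epidermis, and nanogram amounts of RNA were amplified before labelling. The labels do not say whether samples came from separate animals or how many animals gave each one.

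The epidermis is renewed from basal keratinocytes, which divide on the basement membrane and then move outwards through spinous and granular layers to the cornified surface. Each step has its own transcripts, from the keratins KRT5 and KRT14 in basal cells, through KRT1 and KRT10 in spinous cells, to filaggrin, loricrin and involucrin in the granular layer. Mouse epidermis also houses Langerhans cells, which present antigen on MHC class II, and dendritic epidermal T cells, which carry a γδ receptor, and total epidermis further takes in hair follicle and sebaceous cells. IFE cells sorted as high for ITGA6 are, as background, mostly basal keratinocytes, so the IFE arrays give the levels of these genes where few outer cells are expected.

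The stretches just upstream of 6 genes whose levels stood apart are shown because they come from groups described here: 3 cell cycle genes and 2 MHC class II genes that were higher in aged epidermis, and involucrin, which was lower. Each covers the 150 bases before the RefSeq gene start on GRCm38.p6, 5′ to 3′ on the strand of the gene. In the cell cycle genes, capitals mark TTTGAA, the core of the cell cycle genes homology region, and the CCAAT box.
Cdc20: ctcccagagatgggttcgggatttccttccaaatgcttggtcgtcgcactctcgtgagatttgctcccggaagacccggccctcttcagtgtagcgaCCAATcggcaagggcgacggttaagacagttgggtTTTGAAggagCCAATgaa
Ube2c: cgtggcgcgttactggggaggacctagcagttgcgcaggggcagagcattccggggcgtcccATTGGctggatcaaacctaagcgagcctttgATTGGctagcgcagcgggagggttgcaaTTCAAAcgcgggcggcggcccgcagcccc
Ccnb2: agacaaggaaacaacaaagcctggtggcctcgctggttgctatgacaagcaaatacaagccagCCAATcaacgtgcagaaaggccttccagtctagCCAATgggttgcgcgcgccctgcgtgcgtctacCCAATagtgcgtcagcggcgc

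Cdc20 lies on the minus strand (chr4:118437344-118437493), Ube2c on the plus strand (chr2:164769779-164769928) and Ccnb2 on the minus strand (chr9:70421555-70421704). Cdc20 holds TTTGAA 18 bases before the start and CCAAT at 53 and 8 bases. In Ube2c both motifs are on the opposite strand, TTTGAA from 29 bases and CCAAT from 88 and 57 bases before the start, while Ccnb2 holds CCAAT at 87, 54 and 21 bases and no TTTGAA in this window. On either strand, TTTGAA was present in 9.24% and CCAAT in 25.3% of 27025 promoters of this length. Of the 10 higher cell cycle genes with an entry, 3 held TTTGAA and 8 held CCAAT. Of the 25 cell cycle genes that were kept but not 2-fold apart, 4 held TTTGAA and 16 held CCAAT.

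In the class II genes, capitals mark CTGATTGG, the Y box, and TAGCAAC, the core of the X box, which are known elements of class II promoters. In Ivl, which encodes involucrin, capitals mark TGACTCA, a site of AP-1 factors.
H2-Aa: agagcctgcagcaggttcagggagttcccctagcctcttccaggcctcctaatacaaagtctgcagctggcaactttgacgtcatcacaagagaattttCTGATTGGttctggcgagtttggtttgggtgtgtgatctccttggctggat
H2-Eb1: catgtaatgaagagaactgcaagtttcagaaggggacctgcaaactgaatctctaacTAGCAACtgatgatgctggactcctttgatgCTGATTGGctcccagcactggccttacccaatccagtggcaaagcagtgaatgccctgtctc
Ivl: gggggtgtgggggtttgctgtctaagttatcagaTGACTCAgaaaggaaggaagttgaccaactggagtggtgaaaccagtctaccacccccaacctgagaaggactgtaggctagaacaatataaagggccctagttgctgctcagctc

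H2-Aa lies on the minus strand (chr17:34287824-34287973), H2-Eb1 on the plus strand (chr17:34305717-34305866) and Ivl on the minus strand (chr3:92573736-92573885). CTGATTGG, whose reverse complement contains CCAAT, begins 51 bases before the start in H2-Aa and 62 bases in H2-Eb1, where TAGCAAC begins at 93 bases. TGACTCA begins 116 bases before the start of Ivl. On either strand these motifs were present in 3.4%, 2.36% and 2.8% of promoters. Of 6 higher genes of the Langerhans cell list with an entry, 2 held CTGATTGG and 1 held TAGCAAC, against 1 and 0 of 9 that were kept and not 2-fold apart. Of 10 lower granular and cornified genes, 2 held TGACTCA (Lor and Ivl), against 0 of 11 not 2-fold apart. These matches describe the letters in the window and show no binding.

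Over all kept genes, 1244 were higher (5.11%) and 1702 lower (6.99%) in aged total epidermis, 12.1% in all, and higher genes made up 42.2% of the calls (52.8% after a loess correction on level and 59.4% among genes well above background on both arrays). The median difference was -0.01 with a middle range from -0.34 to 0.30. Most calls lay in dim genes: 28.5% of genes with a mean level under -2 were called, 9.53% from -2 to 0, 4.14% from 0 to 2 and 2.03% at 2 and over. Spots well above background made up 64.97% of the young and 56.39% of the aged array, and 1167 of the lower genes were well above background on the young array alone, against 461 of the higher genes on the aged array alone. The young array lay in slide row 1 and the aged array in slide row 2 of the same slide, as did the young and aged IFE and HFSC arrays, so that an effect of slide row and one of age cannot be told apart. Repeat spots of one probe had a median SD of 0.10 (log2) on the young and 0.10 on the aged array, which measures the hybridisation and not the spread between animals. A limma fit of age beside population over the 4 total epidermis and IFE arrays, the nearest to a repeat that the design holds, called 0 of 22825 genes (0%), the smallest Benjamini-Hochberg adjusted p being 0.57 on 1 residual degree of freedom. Before adjustment, 1486 genes had a p under 0.05.

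Keratinocyte identity was in place on both arrays. Krt5 stood at 8.21 in young and 8.14 in aged epidermis, and Krt14 at 8.13 and 8.22. Both are the keratin pair of basal cells, and these differences were below the spread of repeat spots, although another probe of Krt5 differed by 0.33. Trp63, the transcription factor of stratified epithelia, stood at 6.93 and 7.50, a direction held by 1 of its 4 probes, and Krt15, a keratin of basal and bulge cells, at 6.09 and 6.05. Col17a1, which encodes the hemidesmosomal collagen that the series is about, stood at 6.33 in both (probe on mm9 chromosome 19, 47720894 to 47720953), and its partner Itga6, the α6 integrin, at 5.24 and 5.33. Of the 19 basal keratinocyte genes, 0 were called either way and the median difference was 0.09. The largest was that of Itgb1, the β1 integrin, from 1.80 to 2.71, on 1 of its 2 kept probes. Ly6a, which encodes SCA1, stood at 3.94 and 3.35, Cd34 at 0.59 and 0.78, and Elane, neutrophil elastase, was not well above background on either array.

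The genes of the outer layers stood lower in aged total epidermis. Of 25 kept genes of the granular and cornified layer, 13 were lower and 0 higher, beside the 6.99% and 5.11% of all genes, and their median difference was -1.19. Of 31 listed genes, 6 were well above background on neither array. Hrnr, which encodes hornerin, a filaggrin-like protein of the cornified envelope, had the largest difference, at 2.63 in young and -1.14 in aged epidermis, 13.6-fold lower (mm9 chromosome 3, 93127620 to 93127679). Flg, which encodes filaggrin, the bundler of keratin filaments, stood at 3.66 and 0.46, 9.22-fold lower on the probe used. All 3 of its probes were lower, but the smallest difference was -0.70 (log2), under 2-fold. Ivl, an early component of the cornified envelope, stood at 1.23 and -1.96, 9.15-fold lower, with -3.72 on its other probe. Flg2, the filaggrin-2 gene, stood at 1.53 and -1.13. These 4 genes share the epidermal differentiation complex of chromosome 3 with Lor, which encodes loricrin, the most abundant envelope protein, at 4.58 and 3.31, and Kprp, a keratinocyte proline-rich protein, at -0.08 and -2.56.

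Desquamation, the shedding of the outermost cells, rests on proteases and their inhibitors. Klk5, a kallikrein that starts this protease cascade, stood at 3.51 in young and 0.89 in aged epidermis, 6.15-fold lower. Spink5, whose product LEKTI inhibits kallikreins, stood at 3.02 and 0.79, 4.69-fold lower. Klk7, the chymotrypsin-like kallikrein, lay just outside the threshold at 3.67 and 2.68, a ratio of 1.99, and Ptgs1, a suprabasal gene, just inside it at 0.36 and -0.69, a ratio of 2.06. Cdsn, the corneodesmosin that those proteases cleave, was 4.35-fold lower, from 2.27 to 0.14. Tgm1, the transglutaminase that crosslinks the envelope, was 4.35-fold lower, from -0.68 to -2.80, whereas Tgm3, another transglutaminase, stood at 2.73 and 2.72. The late cornified envelope genes did not share the difference: Lce1a1, Lce1a2, Lce1b, Lce1c and Lce1h had differences from 0.12 to 0.78, and Lce1m one of -0.49. Casp14, the caspase that processes filaggrin, stood at 0.13 and -0.17.

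Bright members of the granular and cornified list showed the same direction. Among its 14 members with a mean level of at least 0, 8 were lower and the median was -1.33, where 1.81% of 10520 genes at such levels were lower and 3.18% differed either way, a split chosen after the data were seen.

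Suprabasal genes differed less. Of 14 kept members, 5 were lower and 0 higher, beside 6.99% and 5.11% of all genes, with a median of -0.83. Dsc1, a desmocollin of upper layers, stood at 0.73 and -1.29 (4.07-fold lower) and Krt77, a keratin of the suprabasal layers and sweat ducts, at 4.83 and 3.43 (2.65-fold lower). The main spinous keratins were below the threshold, with Krt10 at 5.66 and 4.86 and Krt1 at 5.69 and 5.07, and so was Krtdap, a differentiation-associated peptide, at 7.10 and 6.51. By list, the median difference was 0.09 for basal, -0.83 for suprabasal and -1.19 for granular and cornified genes. Single genes did not follow this order, since 6 of the 25 granular and cornified genes were positive, most of the late cornified envelope genes named above among them.

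Enzymes of the lipid barrier followed the same direction, with a median of -0.86. Of 17 kept genes, 7 were lower and 0 higher, beside 6.99% and 5.11% of all genes. Alox12b and Aloxe3, the epidermal lipoxygenases that act in sequence on barrier ceramides, stood at 1.61 and -0.31 (3.77-fold lower) and at 2.76 and 1.33 (2.70-fold lower). The other probe of Alox12b differed by only -0.35 (log2). Abca12, the lipid transporter of lamellar granules, stood at -0.10 and -1.45, and Elovl4, an elongase for very long fatty acids, at 6.34 and 5.03. Sdr9c7, a dehydrogenase of the same ceramide route, was at -0.17 in young and not well above background in aged epidermis, 7.69-fold lower. Fa2h, a fatty acid hydroxylase, was at 0.66 in young and not well above background in aged epidermis, at least 25.8-fold lower. A bound of this kind sets the brighter level against the higher of the dim signal and the lowest level well above background on its array (-4.55 on the young and -4.03 on the aged array). A probe can lie above that lowest level and still not be well above background, as Sdr9c7 did at -3.11 on the aged array. Here and below, "at least" holds by this definition and is no strict minimum. Pnpla1, an acylceramide synthase, stood at 2.39 and 2.65.

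**Figure D1:**
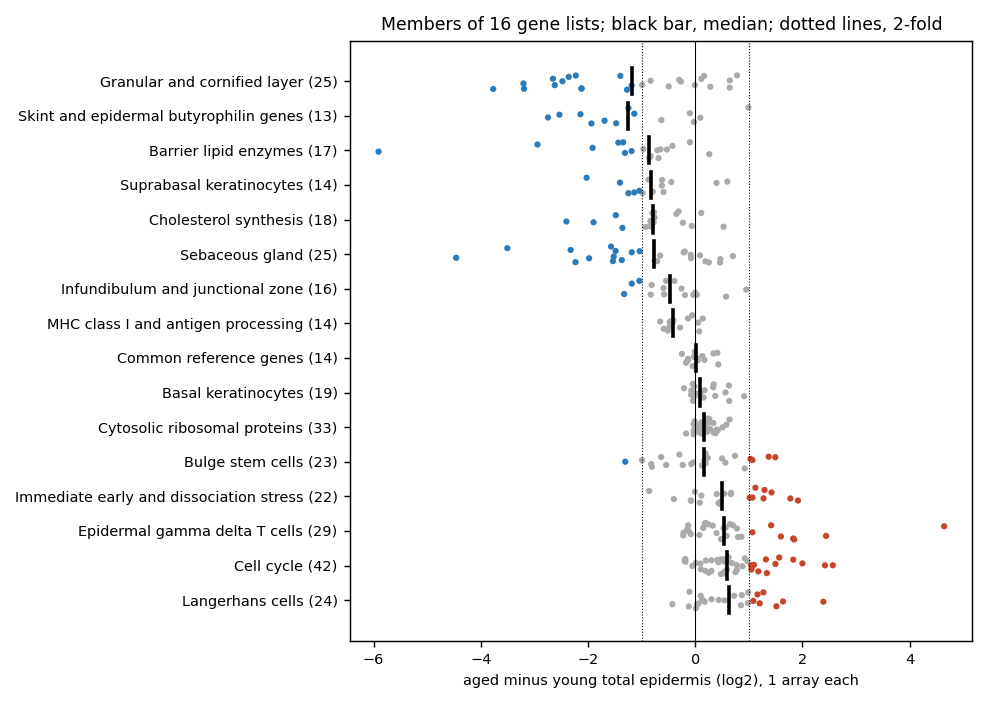
Differences (aged minus young total epidermis, log2, 1 array each) of the kept members of 16 gene lists, 1 point a gene, with the list median as a black bar, 2-fold as dotted lines, lower genes in blue and higher genes in red. Number of kept members is in brackets. The granular and cornified, Skint, barrier lipid, suprabasal, cholesterol and sebaceous lists have medians from -1.25 to -0.76, the basal and reference lists lie near 0, and the cell cycle, T cell and Langerhans cell lists have medians from 0.53 to 0.64.

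Skint genes, a family of butyrophilin-like membrane proteins of keratinocytes of which Skint1 selects the epidermal γδ T cells in the thymus, were among the lists with the lowest medians. Of 13 kept Skint and butyrophilin genes, 8 were lower and 0 higher, beside 6.99% and 5.11% of all genes, and the median was -1.25. Skint5 stood at 3.20 in young and 0.45 in aged epidermis (6.71-fold lower, with -2.10 on its other probe) and Skint8 at 0.45 and -1.69 (4.41-fold lower). Skint2 stood at 1.91 and -0.62, 5.79-fold lower on the probe used, but its other probe differed by only -0.21 (log2). Skint10, Skint11, Skint9, Skint6 and Skint3 were 3.83- to 2.20-fold lower. The other probes of Skint10 and Skint11 differed by -0.75 and -0.82 (log2), under 2-fold. Skint1 itself stood at 3.16 and 3.25 and Skint4 at 2.33 and 1.70. Skint7 stood at 9.50 and 9.40 and Btn1a1 at 9.31 and 9.29, with IFE levels within 0.2 of these. Members of this family are close in sequence, so that a probe can bind RNA of several, and the lower members are not independent of each other. Skint3 and Skint6 are also in the suprabasal list.

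Cholesterol synthesis genes stood lower as a group, with 16 of 18 negative and a median of -0.79. Of the 18, 4 were lower and 0 higher, beside 6.99% and 5.11% of all genes. Msmo1, a methylsterol oxidase, stood at 3.32 and 1.42 (3.72-fold lower) and Sqle, squalene epoxidase, at 3.69 and 2.33 (2.56-fold lower). Lss, which closes the sterol ring, was at -2.20 in young and not well above background in aged epidermis. Hmgcs1, an early synthase of the pathway, stood at 4.33 and 4.10. Srebf2, the transcription factor of the pathway, stood at 0.89 and 1.42.

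In the sebaceous gland list, 12 of 25 kept genes were lower and 0 higher, beside 6.99% and 5.11% of all genes, and the median was -0.76. Over the 13 members with a mean level of at least 0, 5 were lower and the median was -0.195. Several of the lower genes also act in the lipid metabolism of keratinocytes. Dgat2, a diacylglycerol acyltransferase, stood at 2.40 and 0.43 (3.94-fold lower), Fabp5, the epidermal fatty acid binding protein, at 5.06 and 3.57 (2.80-fold lower), Elovl6 at 2.92 and 1.55 and Scd1, a desaturase, at 4.22 and 3.19. Pparg, the master regulator of sebocytes, stood at -1.23 and -2.75. Elovl3, an elongase of sebum lipids, was at -0.71 in young and not well above background in aged epidermis, at least 10.0-fold lower, and Mgst1 was at 0.51 in young and not well above background in aged epidermis. The wax synthase Awat2 was dim, with a bound of 1.10. Well above background on both arrays, 7 genes of the list were lower and the median was -0.43. Among 16 infundibulum and junctional zone genes, 3 were lower and 0 higher (median -0.47), namely Sostdc1, Cidea and Aqp3, of which Aqp3, a glycerol channel, stood at 5.77 and 4.73.

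Levels were also set beside those of IFE. Of the 25 kept granular and cornified genes, 18 had their highest of the 4 levels on the young total epidermis array. There, 6027 of 24327 kept genes and 1350 of all 1702 lower genes had theirs. This rank uses the same levels as the difference, so it is no separate support. Hrnr was at -0.18 and -0.39 in young and aged IFE, near the aged total epidermis level of -1.14 and below the young one of 2.63. HFSC arrays did not share this, with Hrnr at 2.25 and 2.24, Flg at 3.99 and 2.41 and Lor at 5.09 and 4.70 in young and aged HFSCs. Over the kept genes of the list, young total epidermis stood above young IFE by a median of 2.53, and aged total epidermis differed from aged IFE by -0.03. For the suprabasal list these gaps were 1.08 and 0.44, for Skint genes 2.09 and 0.74, for barrier lipids 1.03 and 0.54, and for cholesterol synthesis 0.97 and -0.07. In bulk samples, fewer cells of a type and less RNA per cell cannot be told apart, so the share of outer cells in each sample was not measured here.

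**Figure D2:**
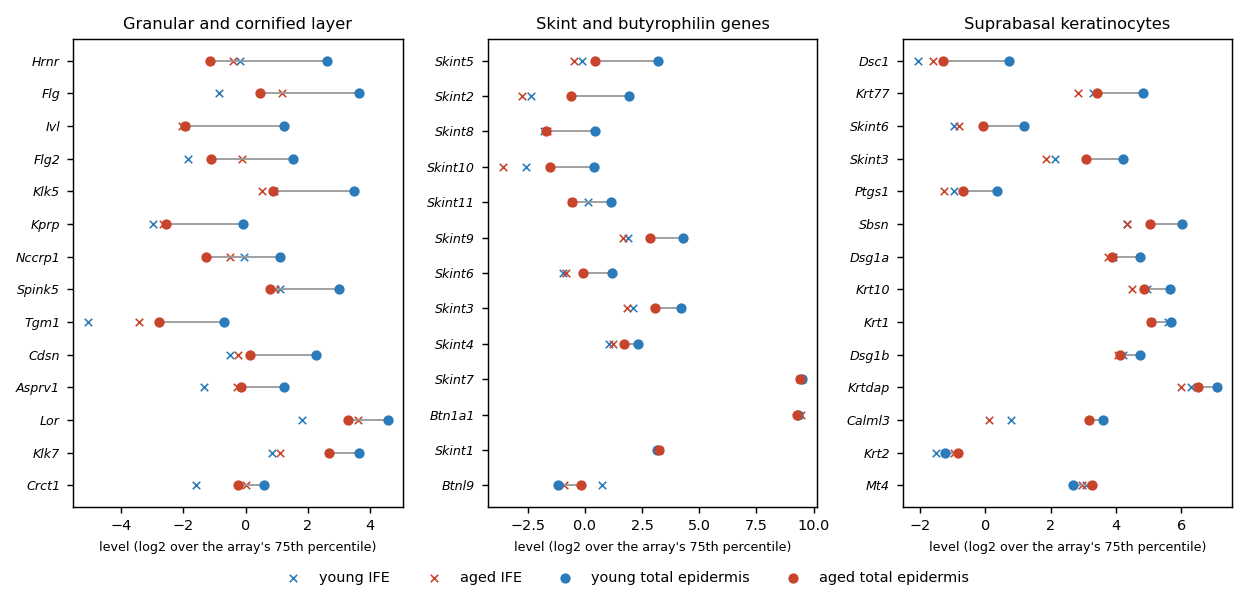
Levels (log2 over the array's 75th percentile) of the members of 3 lists with the largest differences among those well above background on both total epidermis arrays, with total epidermis as dots and IFE as crosses, young in blue and aged in red. Hrnr is at 2.63 on the young total epidermis array and from -1.14 to -0.18 on the other 3, and Dsc1 at 0.73 against -2.08 to -1.29, while Skint7, Btn1a1 and Skint1 coincide.

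The IFE pair did not share the direction of the outermost genes. Between aged and young IFE, 10 of 24 kept granular and cornified genes were higher and 0 lower, where 8.39% of 23277 genes were higher and 3.63% lower, and the median was 0.52. Over the 20 genes of the list well above background on all 4 arrays, the median was -1.13 in total epidermis and 0.32 in IFE, and for all 20 the aged minus young difference was lower in total epidermis than in IFE. Flg went from -0.86 to 1.19 in IFE against 3.66 to 0.46 in total epidermis, Flg2 from -1.86 to -0.10 and Lor from 1.83 to 3.63. The cholesterol list had a median of 0.35 in IFE, and the suprabasal, Skint and barrier lipid lists -0.22, -0.22 and -0.41. In HFSCs, where 18.0% of 23955 genes were higher and 12.1% lower (30.1% in all), the granular and cornified median was 0.29 and the cholesterol one -0.63. Whether the age difference of total epidermis departs from that of the sorted cells was fitted over the 6 unplucked arrays, with 1 residual degree of freedom, a fit added after the data were seen. In limma 0 of 23961 genes passed, 0.997 being the smallest adjusted p, and 808 had a p under 0.05 before adjustment.

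Genes of antigen presentation on MHC class II were higher in aged total epidermis. Of 24 kept genes of the Langerhans cell list, 7 were higher and 0 lower, beside 5.11% and 6.99% of all genes, 21 were positive, and the median was 0.64. H2-DMb2, a chain of the peptide editor H2-M, had the largest difference, at -1.52 in young and 0.86 in aged epidermis, 5.24-fold higher (mm9 chromosome 17, 34284764 to 34284823). H2-DMa and H2-DMb1, the other chains of the editor, were 3.12- and 2.24-fold higher. Cd74, the invariant chain, stood at 1.43 and 2.95 (2.86-fold higher), H2-Aa, the class II α chain, at 0.50 and 1.77 (2.42-fold higher) and H2-Eb1, a β chain, at -0.59 and 0.61 (2.30-fold higher). H2-Ab1, the β chain that pairs with H2-Aa, stood just under the threshold at 2.27 and 3.26, a ratio of 1.99.

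Several other genes of the Langerhans cell list differed less. Cd207, which encodes langerin and defines Langerhans cells, was dim at -3.08 and -2.64, and Epcam, also on follicle keratinocytes, stood at 2.49 and 2.07. Ciita, the class II transactivator, stood at 3.39 and 3.70 and Csf1r, the receptor for CSF1 and IL-34, at 4.41 and 4.54. Both were as bright in young and aged IFE, at 3.49 and 2.99 and at 4.42 and 4.52, so these probes did not set total epidermis apart from sorted keratinocytes. Tyrobp, an adaptor of myeloid and NK receptors, went from 0.27 to 1.26 against -1.64 and -2.19 in IFE. Summed on the linear scale, the list stood at 66.0 in young and 92.3 in aged total epidermis and at 59.1 and 62.8 in IFE. Of 8 kept macrophage and monocyte genes, 3 were higher and 0 lower, beside 5.11% and 6.99% of all genes. Among the 3 were Cd68, a lysosomal protein, from -0.85 to 0.65, and Laptm5, from -0.76 to 0.42. C1qb, another gene of the list, stood at -0.69 and -0.85, and Lyz2 and Cd14 were well above background on neither array. The summed list stood at 223.5 in young and 160.7 in aged epidermis and at 262.7 and 163.6 in IFE, and it includes Apoe, which keratinocytes also express, at 7.78 and 7.27 in total epidermis and 8.02 and 7.33 in IFE.

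In IFE the class II genes were mixed. H2-DMb1 was higher there too, from -1.68 to -0.58, H2-Aa went from -0.83 to -3.09 and H2-DMb2 from -2.18 to -3.41. Cd74 stood at 0.21 and 0.52, and the list median was 0.10. MHC class I genes, which keratinocytes express themselves, leaned the other way in total epidermis, with 0 of 14 called, 11 negative and a median of -0.41. H2-K1, a class I heavy chain, stood at 7.17 and 6.51, and Nlrc5, the class I transactivator, at 3.42 and 2.97.

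Genes of the epidermal γδ T cell were also higher. Of 29 kept genes, 7 were higher and 0 lower, beside 5.11% and 6.99% of all genes, 23 were positive, and the median was 0.53. Among the 9 members with a mean level of at least 0, a split chosen after the data were seen, 2 were higher. At such levels 1.38% of 10520 genes were higher. Gzmb, granzyme B, was not well above background in young epidermis and at -1.33 in aged epidermis, at least 9.33-fold higher. Gzmc, granzyme C, stood at -2.88 and -0.44 (5.43-fold higher). Coro1a, an actin regulator of leukocytes, was not well above background in young epidermis and at -2.05 in aged epidermis, 3.59-fold higher. Xcl1, a chemokine of these cells, stood at -1.34 and 0.49 (3.55-fold higher), and Rgs1, a brake on chemokine receptors, at -0.84 and 0.76 (3.03-fold higher). Ctla2a, a cathepsin inhibitor, stood at 1.55 and 2.96. Subunits of the T cell receptor differed less, with Cd3e at 1.69 and 2.27, Cd3g at 0.05 and 0.83, Cd3d at -1.05 and -0.72 and Cd247 at 2.15 and 2.34. Cd2 and Klrd1 had differences of -0.12 and -0.15.

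Total epidermis stood well above IFE for these genes at both ages. The T cell list lay above IFE by a median of 1.80 in young and 2.29 in aged epidermis. Of its 29 genes, 20 had their highest of the 4 levels on the aged total epidermis array. There, 5452 of 24327 kept genes and 1039 of 1242 higher genes with all 4 levels had theirs. As the rank shares its levels with the difference, it is no separate support. Cd3e was at -1.19 and -0.51 in IFE. Summed on the linear scale, the list stood at 29.9 in young and 50.3 in aged total epidermis, against 18.0 and 20.2 in IFE. The median difference in IFE was 0.60, over 16 kept genes. Over the 14 genes of the list well above background on all 4 arrays, it was 0.295 in total epidermis and 0.476 in IFE. Of 9 kept genes of conventional T cells, 1 was higher (Cd6, on 1 of its 2 probes) and 0 lower, with a median of 0.09 and Cd4 at 1.43 and 1.52.

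Cell cycle genes were higher in aged total epidermis: 38 of 42 kept genes were positive, and the median was 0.60. Of the 42, 12 were higher and 0 lower, beside 5.11% and 6.99% of all genes. Among the 17 members with a mean level of at least 0, a split chosen after the data were seen, 4 were higher. At such levels 1.38% of 10520 genes were higher. Cdc20, the activator of the anaphase-promoting complex, stood at -1.05 in young and 1.51 in aged epidermis, 5.93-fold higher (mm9 chromosome 4, 118105534 to 118105593). Foxm1, the transcription factor of late cell cycle genes, stood at -3.47 and -1.05 (5.35-fold higher). Ube2c, the ubiquitin-conjugating enzyme of the anaphase-promoting complex, stood at -0.87 and 0.96, 3.55-fold higher, but its other probe differed by 0.82 (log2), under 2-fold. Mki67, which encodes Ki-67, stood at 0.84 and 2.40 (2.96-fold higher, with 1.81 on its other probe). Ccnb2 and Ccnb1, the mitotic cyclins, were 2.26- and 2.14-fold higher, Birc5, survivin, 2.53-fold and Nusap1, a spindle protein, 2.82-fold. Bub1, a checkpoint kinase, was not well above background in young epidermis and at least 3.68-fold higher.

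The other 30 kept genes were not 2-fold apart. Among them, Bub1b, a checkpoint kinase, differed by -0.20, Top2a, a topoisomerase, by 0.55 and Kif23, a kinesin of cell division, by 0.77. Mcm6, Mcm4 and Mcm7, subunits of the replicative helicase, stood at 4.97 and 5.27, 4.10 and 4.30, and 3.62 and 3.81, and Pcna, the sliding clamp, at 3.43 and 3.69. The list was higher in IFE as well, with a median of 0.57. There, 8 of 43 kept members were higher and 0 lower, beside 8.39% and 3.63% of all genes. In HFSCs the median of the list was 0.01. In total epidermis the young array gave the lowest of the 4 levels for 32 of 42 genes. It did so for 5836 of 24327 kept genes and for 647 of 1242 higher genes with all 4 levels. The rank uses the same levels as the difference, so it is no separate support. The aged levels stood below those of aged IFE by a median of 0.31, and Cdc20 stood at 1.51 against 0.47 in aged IFE. In the limma fit over total epidermis and IFE, 19 of 42 cell cycle genes had a higher level in aged cells at an unadjusted p under 0.05. Over all 22825 genes, 1486 had such a p in either direction. After adjustment over all genes, 0 passed, and genes of one list are not independent replicates. Among 19 kept genes of cell cycle inhibitors and senescence, the median was 0.03, and Cdkn2a, which encodes p16, was dim at -3.81 in young and not well above background in aged epidermis.

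**Figure D3:**
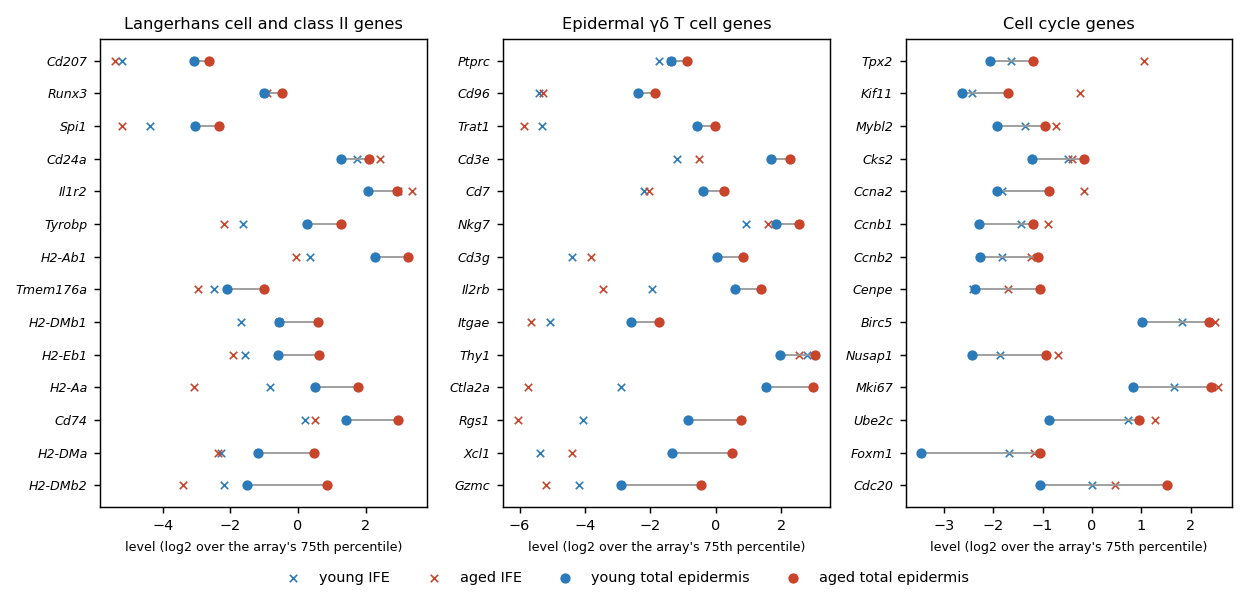
Levels (log2 over the array's 75th percentile) of members of the Langerhans cell, γδ T cell and cell cycle lists with the largest differences among those well above background on both total epidermis arrays, with symbols as dots for total epidermis and crosses for IFE, young in blue and aged in red. H2-DMb2 goes from -1.52 to 0.86 and Xcl1 from -1.34 to 0.49 in total epidermis with IFE levels below both, whereas Mki67 and Birc5 end near aged IFE.

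Immediate early genes, which are switched on within minutes of a stimulus and also during tissue dissociation, were higher in aged total epidermis. Of 22 kept genes, 8 were higher and 0 lower, beside 5.11% and 6.99% of all genes, and the median was 0.51. Fosb stood at 6.05 and 7.33 (2.42-fold higher), Fos at 3.82 and 4.83, Junb at -1.71 and -0.29, Klf2 at -1.01 and 0.90 and Nr4a1 at 0.50 and 1.62. Egr2 stood at 3.58 and 2.72 and Dusp1 at 5.77 and 5.88. In IFE, 3 of 21 were higher, where 8.39% of all genes were, the median was 0.22, and Fosb went from 6.14 to 7.55. In HFSCs, 7 of 21 were higher and 0 lower, where 18.0% and 12.1% of all genes were, with a median of 0.59. Heat shock and unfolded protein response genes, by contrast, had a median of -0.13 with 0 of 20 higher and 2 lower. The part that handling of the samples had in these values was not tested.

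Hair follicle and signalling lists were mixed. Of 23 kept bulge genes, 4 were higher and 1 lower (median 0.17), beside 5.11% and 6.99% of all genes. Grem1, a BMP antagonist, stood at -0.26 and 1.24 and Lgr5, a stem cell receptor, at -1.71 and -0.67, both far below the young HFSC levels of 5.91 and 4.15, while Sox9 stood at 2.06 and 1.07. Tgfb2, a TGF-β ligand, was 5.01-fold higher, from -2.34 to -0.02, and higher by 1.68 (log2) on its other probe. Of the EGF receptor ligands, Epgn and Nrg1, which binds related receptors, were 3.55- and 4.46-fold higher, while Ereg was at -1.80 in young and not well above background in aged epidermis, at least 4.70-fold lower. The interferon list was split, with 3 higher and 3 lower of 22. Among lists near the median of all genes were p53 targets (-0.01, 1 of 23 higher), the circadian clock (-0.04, 0 of 18 called), JAK-STAT signalling (-0.03, 1 of 18 lower), mitochondrial respiratory chain (0.05, 0 of 29 called), common reference genes (0.01, 0 of 14 called) and cytosolic ribosomal proteins (0.17, 0 of 33 called).

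Markers of cells from outside the epidermis were mostly dim. The fibroblast collagens Col1a2 and Col3a1 differed by 0.57 and 0.46, with Col1a2 at -1.43 in aged epidermis and Col3a1 at -3.46 in young and not well above background in aged epidermis, and 2 of 9 kept fibroblast genes were higher and 2 lower. Vim, which encodes vimentin and is also made by immune cells, stood at 0.57 and 1.98. Of 7 kept endothelial genes, 1 was higher, Cdh5, a cadherin not well above background in young epidermis and at -2.56 in aged epidermis (at least 3.99-fold), while Pecam1 stood at -3.76 in young epidermis and was not well above background in aged epidermis. Of 8 kept erythroid and skeletal muscle genes, 3 were lower and 1 higher. Haemoglobin α transcripts were lower in aged epidermis, Hba-a1 at 0.65 and -1.32 and Hba-a2 at -0.57 and -2.09, and these copies are near-identical, so their probes cannot be told apart. Alas2, the erythroid haem enzyme, was higher, from -1.94 to -0.81. Of 7 kept melanocyte genes, Pmel, a melanosome protein, was higher, from 0.03 to 1.09 (0.20 and 1.25 in IFE), and Mlana and Gpr143, at -2.79 and -3.62 in young epidermis, were lower and not well above background in aged epidermis. The part of these cells in the differences was not tested.

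The largest single differences were mostly in genes of no listed group. Among genes well above background on both arrays, Spata33, named for spermatogenesis, stood at -3.54 in young and 1.79 in aged epidermis (40.4-fold higher), Slc15a2, a peptide transporter, at -3.40 and 1.27 (25.5-fold higher) and Derl3, a factor of protein degradation at the endoplasmic reticulum, at -3.51 and 0.78 (19.5-fold higher). Ang2, an angiogenin-family ribonuclease, was 15.0-fold higher, and Zfp952, Slc25a53, Olfr1441 and Fam228b were 14.6- to 11.5-fold higher, Fam228b on 1 of its 2 kept probes. Of these 8, Slc15a2 was the one at least 2-fold higher in IFE and in HFSCs too, with differences of 2.68 and 2.57.

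Lower by the most were Mfap3, a microfibril-associated protein, at 1.88 and -2.33 (18.6-fold), Serping1, the C1 inhibitor of complement, at 3.09 and -1.08 (18.0-fold), F3, tissue factor, at 1.38 and -2.58 (15.5-fold), Mboat2, an acyltransferase of phospholipids, at 1.88 and -2.04 (15.1-fold) and Clcf1, a cytokine of the IL-6 family, at 1.88 and -1.97 (14.4-fold). Both kept probes of Mfap3, F3 and Mboat2 were lower. Those of Mfap3 differed in size, at -4.21 and -0.94. Hrnr, Sap30bp and Rdh9, a retinol dehydrogenase, completed the 8, Rdh9 being 11.5-fold lower. Sap30bp was 12.7-fold lower on the probe used and higher by 1.38 (log2) on its other probe, so that its direction was not settled. In IFE, Serping1, Mboat2 and Clcf1 differed by -0.59, 0.44 and 0.17.

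Where the dimmer array was not well above background, the bounds were larger. Hottip, a long noncoding RNA of the HoxA cluster, was at 3.63 in young epidermis and at least 202-fold lower in aged epidermis, Rab9b, a GTPase of endosomes, at least 127-fold, Vmo1 at least 110-fold and Igbp1b at least 105-fold. Hottip, Rab9b and Vmo1 were well above background on 0 of the other 10 arrays and Igbp1b on 1. In the other direction, Olfr50, an olfactory receptor gene, was at least 63.3-fold higher, Henmt1, a methyltransferase of small RNAs, 36.9-fold, Ak5, an adenylate kinase, 35.6-fold and Mmp1a, a collagenase, 32.7-fold. Ak5 was well above background on 0 and the other 3 genes on 3 of the other 10 arrays. Of the lower genes seen on the young array alone, 208 of 1167 were well above background on none of the other 10 arrays, and of the higher genes seen on the aged array alone, 94 of 461.

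Some genes were called in both total epidermis and IFE. Of 19203 genes well above background on all 4 arrays, 522 were higher and 479 lower in total epidermis, and 84 were higher in both (16.1% of those of total epidermis and 16.8% of those of IFE), 61 lower in both (12.7% and 12.8%) and 45 called in opposite directions. Over all 19203 genes, 2.61% were higher and 2.49% lower in IFE. Across these genes, which are not independent replicates, r was 0.16. Gpha2, a glycoprotein hormone subunit, stood at 1.37 and 3.72 in total epidermis and at 1.90 and 4.08 in IFE. Casp1, the caspase of inflammasomes, stood at -0.04 and 1.41 in total epidermis and at -0.90 and 1.59 in IFE. Tubal3, Ckap2, a mitotic spindle protein, and Zfp454 were 3.34- to 3.65-fold higher in total epidermis and also higher in IFE, Zfp454 on 1 of its 2 probes. In HFSCs, Gpha2 and Ckap2 differed by -2.01 and -2.32.

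Lower in both were Kif26b, a kinesin, on all 3 of its probes (0.41 and -2.72 in total epidermis), Rmrp, the RNA of RNase MRP (2.91 and 0.67), Hal, the histidine ammonia-lyase that makes urocanic acid in the outer epidermis (0.18 and -1.98), Rps4l (0.85 and -1.23), Hpgds, a prostaglandin D synthase (0.95 and -0.83) and Mir100hg (-1.02 and -3.02). Over the 2 pairs, the age difference was 2.27 ± 0.25 for Gpha2 and -2.16 ± 0.25 for Rmrp (SE, n = 2 pairs, limma adjusted p = 0.57 for each), and neither passed. Both genes were picked for a 2-fold difference in the same direction in both pairs. Their agreement between pairs thus follows from the choice, which also favours a small SE. IFE cells are also part of total epidermis, so the SE over these pairs does not measure the spread between animals. At least 2-fold apart in total epidermis and with an IFE difference under 0.5 were Cdc20, Cdkn3, a phosphatase of cyclin-dependent kinases (-2.73 and -0.50), Clec2e, Fbxl8 and Tmem255a among the higher genes, and Mboat2, Clcf1, Hrnr, Sap30bp, Ift22 and Ivl among the lower ones.

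**Figure D4:**
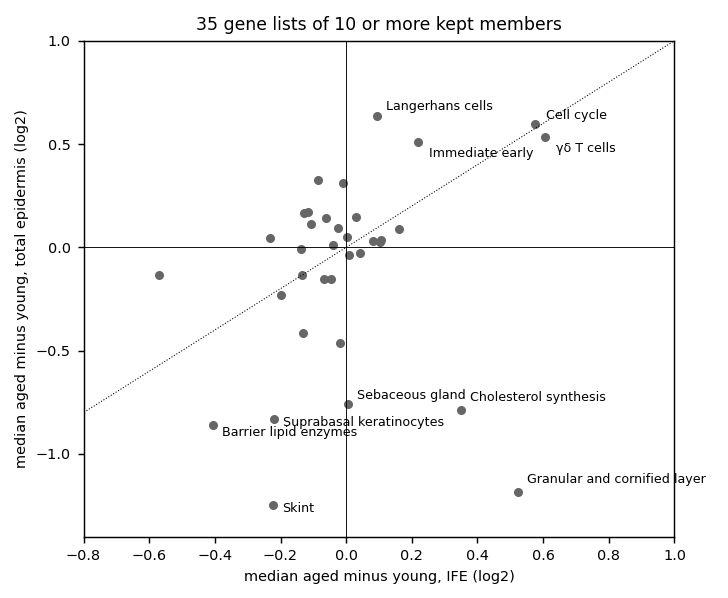
Median difference (aged minus young, log2) of the 35 gene lists with at least 10 kept members in both populations, IFE on the horizontal and total epidermis on the vertical axis, with the dotted line where both are equal. Cell cycle and γδ T cell lists lie near that line, at 0.57 and 0.60 in IFE, while the granular and cornified list lies at 0.52 in IFE and -1.19 in total epidermis. Kept members can differ between the populations, and the γδ T cell medians rest on 29 genes in total epidermis and 16 in IFE.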

How the data were processed

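The 2 total epidermis arrays and, beside them, the IFE and unplucked HFSC arrays were one-colour (Cy3) Agilent arrays. Per the file headers, the deposited spot intensities came from Feature Extraction 10.7.3.1 (protocol GE1_107_Sep09), with probe coordinates on mm9. The authors' deposited value table holds log2 values with a median of 0 over the arrays for each of its 55821 probes. How it was made is not given in the sources used here, and its columns tracked the scanner values once each probe was centred on its median (r = 1.0000).

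Control and outlier spots were left out, no spot was saturated, and spots of a probe were averaged. Of 55681 probes, 28026 were named by accession through the RefSeq gene table, and the others kept the name in the files. Where a gene had several probes (11198 genes), the brightest on average over all 12 arrays stood for it. Genes of one list were compared by their own differences, never level against level, and a summed level served as a description. The fit used limma 3.58.1 in R 4.3.3 on genes well above background on at least 2 arrays. Simulated data with known differences were used to test it. Figures used matplotlib 3.10.9 in Python 3.11.15. Array number limits the precision.

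The members and the 51 gene lists (1008 genes on the array) were chosen with earlier results of these data known. Named genes were, in each direction, the 8 largest differences on both arrays, the 4 largest bounds, the 6 largest shared with IFE and the 6 largest with an IFE difference under 0.5. They also took up to 6 called genes and the first 3 genes of a list, and the study's own genes. Predicted genes were not named, and some genes that met the rule are not reported here. Other list members were named after their values were seen. Promoters came from the RefSeq table for GRCm38.p6.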

Additional observations from a re-analysis of the deposited data

Results flagged for a closer look

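Several values went one way in total epidermis and the other way in IFE. The difference between the pairs of single arrays was not tested, either for the lists or for single genes. The limma fit of total epidermis against the sorted cells took IFE and HFSCs together, so it does not address IFE alone. In that fit 0 genes passed. The granular and cornified list had a median difference of -1.19 in total epidermis and 0.52 in IFE, and the cholesterol synthesis list -0.79 and 0.35. Among genes well above background on all 4 arrays, Flg was at -3.20 in total epidermis and 2.05 in IFE, Flg2 at -2.65 and 1.77, and Lor at -1.27 and 1.80. H2-DMb2 was at 2.39 and -1.23 and H2-Aa at 1.27 and -2.25. Ang2 was at 3.91 and -1.72, Oas3, an interferon-induced gene, at 1.72 and -1.08, and Col18a1, a basement membrane collagen, at 1.59 and -1.18.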

How the results depend on the processing

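No paired analysis was possible because each group had 1 array and all replicate numbers were the same, so that no replicate number could be a block. The limma fit pairs the ages within each population instead. With 1 array a group no replicate could be left out, and slide could not be a block, since both arrays lay on 1 slide. Of 1244 higher and 1702 lower genes, normexp correction with quantile scaling left 354 and 361, and requiring both arrays well above background left 783 and 535. Without a filter on dim probes 2077 genes were higher. At 1.5-fold there were 2932 and 3543, at 4-fold 406 and 484, and at a mean level of at least 0, chosen after seeing the data, 145 and 190. Higher genes made up 42.2% of calls, 52.8% after loess on level and 59.4% with both arrays above background. List medians moved as follows: granular and cornified genes to -0.83 without a filter, cholesterol synthesis to -0.49 and Langerhans cell genes to 0.34 with normexp, and sebaceous gland genes to -0.35 with normexp, -0.43 with both arrays above background or without a filter and -1.04 with the median over probes. Normexp with an offset of 50 compresses dim genes by construction, and with it 4 cell cycle and 4 Langerhans cell genes were higher in place of 12 and 7. The lists of antimicrobial genes (0.048) and of adipocytes and Schwann cells (0.26) turned positive without a filter, as did stress keratins and alarmins (0.385), hair shaft genes (0.136) and proteases (0.05). Neutrophil genes turned to -0.22 with the median over probes and EGF receptor ligands to 0.32 with both arrays above background. A further 7 lists with medians within 0.1 of 0, basal keratinocytes and reference genes among them, also changed sign. Mpo turned to -0.85 with the median over probes and Cdkn2a to 0.10 after loess, and the cause was not tested. The 8 lower Skint genes stayed 8 in number in each alternative. limma called 0 genes with 75th percentiles over detected probes, normexp, no filter or 6 arrays (1568, 2077, 1326 and 1598 at an unadjusted p under 0.05).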

Other observations

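Of 163 genes that stood 2-fold or more above IFE and HFSC at both ages in total epidermis, 46 were higher and 16 lower in aged epidermis, with a median difference of 0.57. Over all 20721 genes well above background on both arrays, 783 were higher and 535 lower. The set was picked from the same levels that give the difference, so these counts are a description only. The 4 Y-linked genes examined were well above background on both total epidermis arrays, with a median difference of -0.30, and Xist on neither.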
